A study of Mus musculus with 3 samples.

Results

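The distal part of mouse chromosome 15 was examined from 72.8 Mb on (build mm9), within the gene Trappc9, over a stretch of 27.6 Mb in which earlier results of these data had shown a low-level rise of the copy number ratio in 1 of 3 tumour lines. The members were the 2251 distinct probes of the array that lay wholly inside these coordinates, of 161449 on the autosomes. They were grouped into 29 bins of 1 Mb, of 2385. The boundaries cut the bins at 72 and 100 Mb, and the parts inside the stretch, with 20 and 38 probes, count among the 29. The other 4430 probes of chromosome 15, in 74 bins, served as the comparison. The stretch was chosen by the log2 ratios of line 2, so those of line 2 are given as a description, and lines 1 and 3 were not used by the choice. The 2251 probes stood for 423 gene names in the array's design. A name stood beside 1536 of them, and 715 carried none.

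The 3 lines were neurosphere cultures, which are floating clusters of cells grown in neural stem cell medium, each derived from a mouse tumour that had become resistant to inhibition of CSF-1R, the receptor on which macrophages and microglia depend. They form 1 group and were taken at passages 2 to 3. Line 1 carries one animal number, and lines 2 and 3 share another one and the same liver. Neurosphere DNA was labelled with Cy5 and set on the same array against Cy3-labelled DNA of mouse liver, the reference of all values below. The labels used here name no inhibitor, strain, genotype or age, and no untreated or sensitive line is among the samples. Dyes were not swapped and a single slide carried the 3 arrays, so that dye and slide cannot be told apart from an effect shared by the lines.

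Array comparative genomic hybridisation measures, probe by probe, how much more of a sequence the tumour DNA holds than the reference DNA. A gain carried by every cell lifts all probes of a segment by the same step, and a gain in part of the cells lifts them by the same smaller step. Such ratios are also known to drift in long waves along chromosomes that follow base composition and gene density. Here the ratio was expressed as log2 of neurosphere over liver signal and centred on the autosomal median of each array, so that 3 copies in place of 2 in every cell would give 0.585. The stretch holds many genes of general interest: Pdgfb encodes a growth factor for glial precursors, Csf2rb the shared receptor subunit for several blood cell cytokines, Ep300 a histone acetyltransferase, Ptk2 the focal adhesion kinase, Arc a synaptic protein, Shank3 a scaffold of the synapse, Lrrk2 a kinase linked to Parkinson's disease, and Cntn1 an adhesion molecule of neurons.

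The probes are designed oligonucleotides, and those at the edges show what the boundaries rest on. The capitals mark CpG dinucleotides, and all positions and sequences are as the files give them for mm9, with no strand.
Last probe before the stretch, chr15:72787515-72787574: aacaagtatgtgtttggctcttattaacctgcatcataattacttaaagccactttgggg
Last probe of the stretch, chr15:100385203-100385262: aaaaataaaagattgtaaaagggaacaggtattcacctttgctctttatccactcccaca
First probe after the stretch, chr15:100403774-100403833: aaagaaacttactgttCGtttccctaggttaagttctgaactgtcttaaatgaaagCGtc
The probe before the stretch and the first inside it lie in Trappc9, which takes part in vesicle traffic, and the other two carry no gene name. Single probes were too variable to place an edge. The first probe of the stretch read -0.320, 0.147 and 0.198 in lines 1, 2 and 3, and the last probe before it read 0.0616, -0.140 and -0.327. Over 10 probes on each side of the start, the means inside were -0.0063, 0.132 and 0.0044, against -0.0950, -0.0232 and -0.165 outside. Over 50 probes on each side of the start, they were 0.105, 0.128 and 0.107 inside, against -0.0978, 0.0183 and -0.0923 outside. Over 10 and over 50 probes the inside was thus higher in each line, line 1 included. The step was smallest in line 1 over 10 probes and in line 2 over 50. At the single probes line 1 was lower inside than outside. At the far end the 10 probes inside gave -0.125, 0.0283 and 0.0202, and the 10 outside gave 0.0031, 0.229 and 0.180. Over 50 probes on each side of the end, the means inside were 0.0376, 0.115 and 0.115, against 0.0119, 0.113 and 0.0459 outside. Which side of the end was higher thus depended on how many probes were taken.

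The rise was small and differed between the lines. In line 1 the stretch averaged 0.0128 (SD 0.0759 over 29 bins, 95% interval over bins -0.016 to 0.0417), against -0.0198 (SD 0.0811) over the 74 bins of the rest of chromosome 15. In line 2 it averaged 0.127 (SD 0.0545, 0.106 to 0.148), against 0.0148 (SD 0.0797) in the rest. In line 3 it averaged 0.0854 (SD 0.0762, 0.0564 to 0.114), against 0.0423 (SD 0.0775) in the rest. All 29 bins of the stretch lay above 0 in line 2, 25 did so in line 3 and 16 in line 1. In the rest of the chromosome 30, 42 and 50 of 74 bins lay above 0 in lines 1, 2 and 3. The other autosomes averaged -0.0090, -0.0077 and 0.0012 in the same order.

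**Figure D1:**
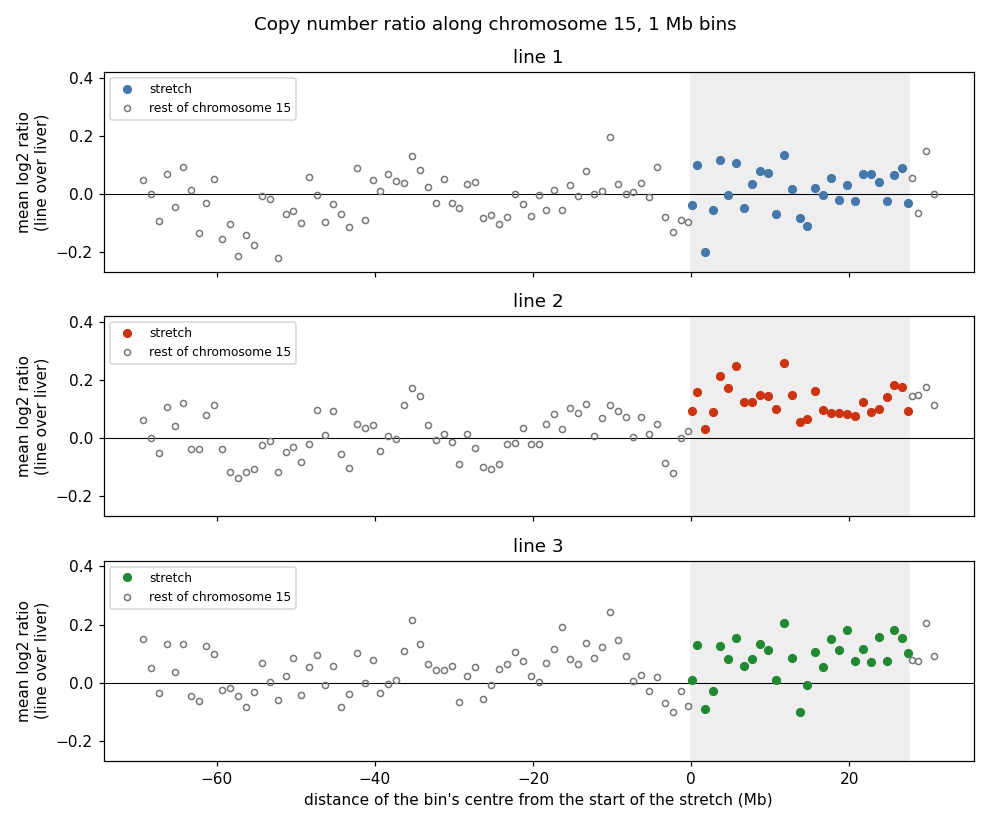
Mean log2 ratio of neurosphere over liver in 1 Mb bins of chromosome 15 (y axis), by distance of the bin's centre from the start of the stretch in Mb (x axis), with 1 panel per line. Filled points are the 29 bins of the stretch, on grey, and open points the rest. All filled points of line 2 lie above 0, while those of line 1 lie on both sides of it.

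The stretch stood above the rest of the chromosome by 0.0326 in line 1 (95% interval -0.0014 to 0.0666), by 0.112 in line 2 (0.0850 to 0.140) and by 0.0431 in line 3 (0.0094 to 0.0768). The interval held 0 in line 1 and not in line 3, the lines that the choice of the stretch did not use. Line 3 shares its animal and liver with line 2, so it is not independent of the line that chose the stretch. These intervals cover the spread between bins of 1 array, and neighbouring bins are not independent. With 3 lines an exact two-sided sign flip test cannot give a p below 0.25, so no test over lines is given. If the levels came from a gain of 2 to 3 copies alone, they would correspond to 1.78% of the cells of line 1, 18.4% of line 2 and 12.2% of line 3, a conversion of scale and no measurement of cells.

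No run of 28 neighbouring bins on another autosome reached the level of the stretch in line 2 or line 3. Of 1796 such windows, 0 were at or above it in either of these, and line 1 had 340. The highest window of line 2 elsewhere averaged 0.0990 and lay on chromosome 11 between 94 and 122 Mb. In line 3 the highest window off the stretch was on chromosome 15 itself, between 36 and 64 Mb, at 0.0779 with 5.54 gene names per bin. The stretch of line 2 was selected as the farthest of its kind, so its own position among the windows is a description.

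Gene number went with the ratio across the whole genome and differed between the parts compared. A bin of the stretch held 15.2 gene names on average, against 5.73 in the rest of chromosome 15 and 8.97 on the other autosomes. Over the 2282 bins of the other autosomes, 10 more gene names went with a higher ratio by 0.0393 in line 1, 0.0634 in line 2 and 0.0232 in line 3. Within the stretch the slopes were 0.0338, 0.0416 and 0.0272 per 10 names, and a straight line on gene number took up 16.8%, 49.5% and 10.8% of the variance between its 29 bins (Pearson's r 0.410, 0.703 and 0.329). These correlations run over bins that share an array and are a description. Gene number took up the most in line 2, a difference between lines that was not tested. The stretch and the other autosomes were also compared at the same gene number. Extrapolated to 0 names it stood at -0.0385, 0.0641 and 0.0442 in lines 1, 2 and 3, against -0.0443, -0.0645 and -0.0196 on the other autosomes, so that they lay close together in line 1 and farther apart in lines 2 and 3.

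**Figure D2:**
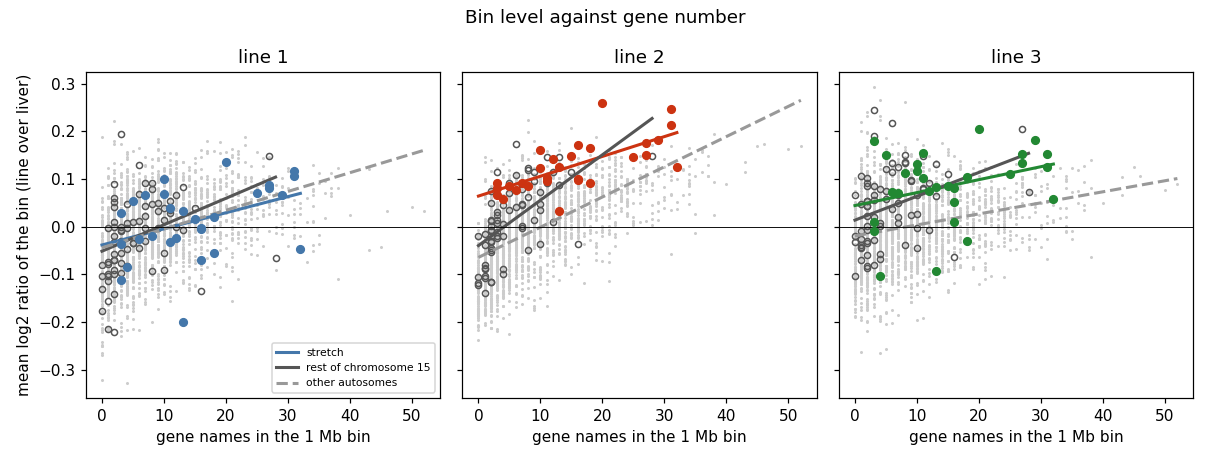
Mean log2 ratio of each 1 Mb bin (y axis) against the number of gene names in it (x axis), with 1 panel per line. Coloured points are the stretch, open circles the rest of chromosome 15 and small grey points the other autosomes, with a fitted straight line for each. In line 2 the stretch's line starts at 0.0641, against -0.0645 for the other autosomes.

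In bins of like gene number the stretch lay above the other autosomes in every class in lines 2 and 3, and on both sides of them in line 1. In line 2 the stretch exceeded the other autosomes by 0.157 in bins of 0 to 3 gene names (3 bins of the stretch), by 0.0888 in bins of 4 to 9 (5 bins), by 0.0878 in bins of 10 to 19 (13 bins) and by 0.109 in bins of 20 or more (8 bins). In line 3 the same differences were 0.0826, 0.0590, 0.0557 and 0.105. In line 1 they were 0.0136, 0.0085, -0.0269 and 0.0341. Against the rest of chromosome 15 in the same classes, the stretch differed by 0.115, 0.0334, 0.0504 and 0.0258 in line 2. The differences from the rest were 0.0438, -0.0055, 0.0147 and 0.0014 in line 3, and 0.0162, -0.0167, -0.0140 and 0.0354 in line 1. Only 2 bins of the rest fell in the class of 20 or more. Of the 3 bins of the stretch with 0 to 3 names, 1 is the bin cut by its start, with 3 names on 20 probes. With the other autosomes weighted to the classes of the stretch, the stretch differed from them by 0.0002, 0.101 and 0.0728 in lines 1, 2 and 3.

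After subtraction of the genome-wide line on gene number, about as much of the difference was gone as was left in lines 2 and 3. The stretch averaged -0.0026, 0.0956 and 0.0698 in lines 1, 2 and 3, against 0.0019, 0.0431 and 0.0486 in the rest of chromosome 15. The stretch then stood above the rest by 0.0525 in line 2 (95% interval 0.0307 to 0.0743) and by 0.0212 in line 3 (-0.0107 to 0.0532), and differed from it by -0.0046 in line 1 (-0.0359 to 0.0267). In line 3, the line of this pair that did not choose the stretch, the interval held 0.

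The rest of chromosome 15 was itself above the other autosomes in both lines of the shared animal. After the same subtraction it stood above them by 0.0431 in line 2 (0.0282 to 0.0579) and by 0.0486 in line 3 (0.0312 to 0.0660), and by 0.0019 in line 1 (-0.0159 to 0.0197). The mean over the whole of chromosome 15 was 0.0567 in line 2 and 0.0548 in line 3, first of the 19 autosomes in each, and 0.0008 in line 1, where it ranked 8. Of the 1838 windows of 28 bins off the stretch, 8 were at or above the corrected stretch of line 3. All 8 lay on chromosome 15, and the highest, between 37 and 65 Mb, averaged 0.0851, against 0.0698 for the stretch.

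The authors' deposited value table, which holds log10 ratios of the same arrays after steps not given in the sources used here, showed a smaller contrast. In it, turned into log2 and centred in the same way, the stretch averaged -0.0052, 0.0685 and 0.0740 in lines 1, 2 and 3, against -0.0079, 0.0462 and 0.0539 in the rest of the chromosome. The excess of the stretch in line 2 came to 0.0223 (95% interval 0.0020 to 0.0425) in that table, and in line 3 to 0.020 (-0.0132 to 0.0532). The slope on gene number over other autosomes was 0.0117 per 10 names in line 2 of the table, against 0.0634 in the scanner values. The whole of chromosome 15 ranked first of the autosomes in lines 2 and 3 there too, at 0.0525 and 0.0596, and the next, chromosome 19, stood at 0.0148 and 0.0225.

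Along the stretch the level was divided into 5 blocks. In line 2 they averaged 0.132 (from the start to 77 Mb), 0.151 (to 84 Mb), 0.145 (to 90 Mb), 0.0922 (to 95 Mb) and 0.139 (to the end), with standard errors over probes of 0.0098 to 0.0143. In line 3 the same blocks averaged 0.0409, 0.0888, 0.0727, 0.127 and 0.127, lowest in the first. In line 1 they lay between 0.0031 and 0.0437. The fourth block, with 6 gene names per Mb the poorest in genes, was the lowest of line 2 and among the higher ones of line 3. After subtraction of the line on gene number it stood at 0.115 in line 2 and 0.131 in line 3 (SE 0.0123 and 0.0138). The 10 Mb before the stretch gave -0.0102, 0.0301 and 0.0159 in lines 1, 2 and 3, and the 294 probes after it gave 0.0353, 0.152 and 0.119.

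**Figure D3:**
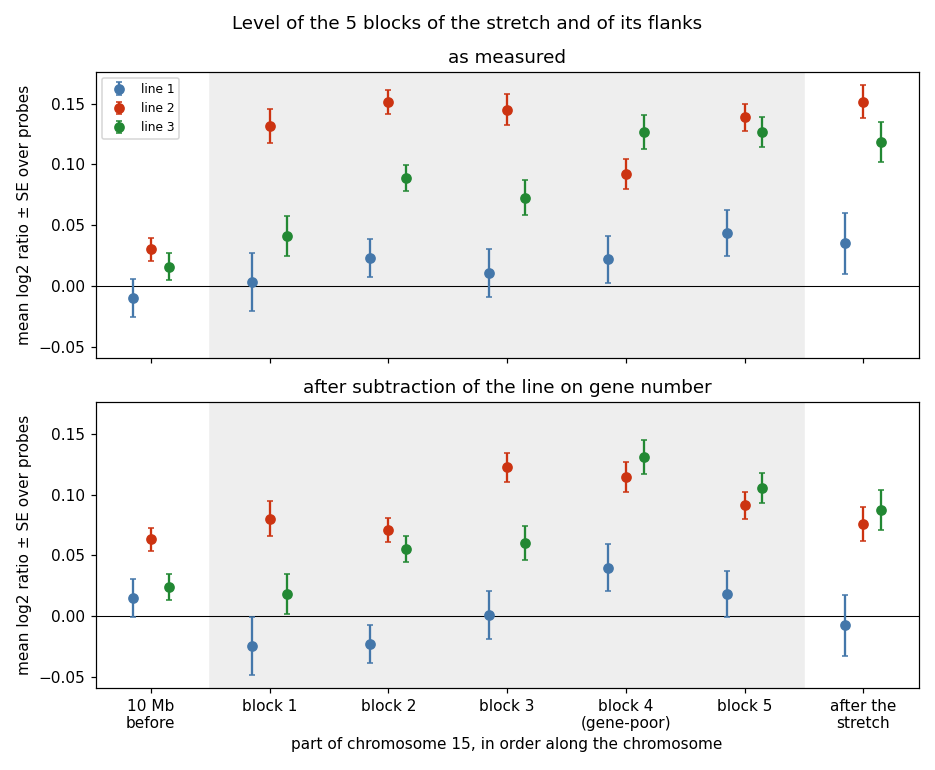
Mean log2 ratio with its standard error over probes (y axis) in the 10 Mb before the stretch, its 5 blocks on grey, and the part after it (x axis), for the 3 lines, as measured above and after subtraction of the line on gene number below. Line 2 drops to 0.0922 in the gene-poor block 4 as measured, where line 3 is at 0.127.

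A bias that a probe carries on every array cancels when 1 array is subtracted from another. Line 2 exceeded line 1 in all 29 bins of the stretch, by 0.114 on average (SD 0.0496, lowest 0.0239, highest 0.232), against 0.0346 in the rest of chromosome 15. The excess of the stretch was 0.0797 (95% interval 0.0569 to 0.103), and within the stretch line 2 minus line 1 had a slope of 0.0078 per 10 gene names (r 0.145, 29 bins). The slope was 0.0397 in the rest of chromosome 15 (r 0.367) and 0.0240 on the other autosomes (r 0.309). This excess was not corrected for gene number. Line 3 exceeded line 1 by 0.0726 in the stretch and by 0.0621 in the rest, a difference of 0.0105 whose interval held 0 (-0.0103 to 0.0313). Line 2 exceeded line 3, of the same animal, by 0.0418 in the stretch, against -0.0275 in the rest. That difference was not even: it was 0.0906 in the first block, 0.0626 and 0.0723 in the next 2, -0.0346 in the gene-poor block 4 and 0.0117 in the last. On the other autosomes line 2 minus line 3 rose by 0.0402 per 10 gene names (r 0.536, 2282 bins).

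Both channels moved. For neurosphere DNA alone, line 2 minus line 1 was 0.0862 in the stretch, against 0.0317 in the rest, and line 3 minus line 1 was 0.0412, against 0.0634. For liver DNA alone, line 2 minus line 1 was -0.0268 in the stretch, against -0.0016 in the rest, and line 3 minus line 1 was -0.0198, against 0.0128. The liver channel thus gave -0.0252 (95% interval -0.0408 to -0.0096) of stretch minus rest in line 2 minus line 1, and -0.0327 (-0.0500 to -0.0153) in line 3 minus line 1. In neurosphere DNA alone the stretch of line 3 minus line 1 lay below the rest, by -0.0222 (-0.0433 to -0.0010). For line 3 minus line 1, the small excess of the stretch in the ratio, 0.0105, is thus what the 2 negative channel values leave, and why the liver channels differ was not tested. Between the liver channels of the shared animal, line 2 minus line 3 was -0.0070 in the stretch, against -0.0144 in the rest.

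**Figure D4:**
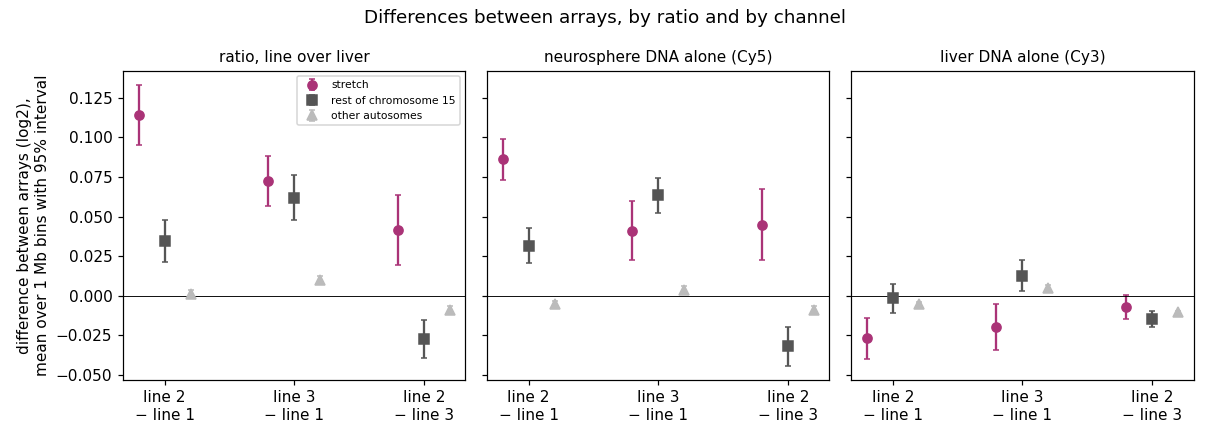
Difference between pairs of arrays (y axis, log2, mean over 1 Mb bins with its 95% interval) in the stretch, the rest of chromosome 15 and the other autosomes, for the ratio, for neurosphere DNA alone and for liver DNA alone. For line 2 minus line 1 the ratio's value is 0.114 in the stretch, against 0.0346 in the rest.

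Tested across the 3 lines with limma (two-sided, Benjamini-Hochberg over all 2385 bins, adjusted p below 0.05), 18 of the 29 bins of the stretch passed above 0 and 1 below, against 18.2% of all bins above and 21.9% below. In the rest of chromosome 15, 18 of 74 passed above 0. Line 2 had chosen the stretch, so the count is read beside the fit without that line: 12 of the 29 bins then passed above 0, against 10 of 74 in the rest and 9.64% of all bins. After the correction for gene number, 17 of 29 passed above 0 in the stretch and 30 of 74 in the rest, against 18.7% of all bins. This fit includes line 2, and the fit without line 2 was not corrected for gene number. No fit did both. These tests rest on 3 lines, 2 of which share an animal. In them limma draws the spread of each bin between lines towards that of all bins. A bin can therefore pass although its own lines lie far apart, and the same holds for the genes below.

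By the mean of lines 1 and 3, the highest bins of the stretch were those at 84, 78 and 98 Mb. The bin from 84 to 85 Mb gave 0.135, 0.258 and 0.206 in lines 1, 2 and 3 and held 20 gene names, among them Parvb, an adhesion protein of the actin skeleton, Phf21b, a PHD finger protein, Samm50, a mitochondrial import protein, and Smc1b, a meiotic cohesin. The bin from 78 to 79 Mb, with Triobp, Csf2rb and Il2rb among 31 names, gave 0.106, 0.247 and 0.153. The bin from 98 to 99 Mb, with Mll2, a histone methyltransferase, and Adcy6, an adenylate cyclase, among 29 names, gave 0.0656, 0.182 and 0.182. The lowest was the bin from 74 to 75 Mb, which holds Bai1, a brain adhesion receptor, and Arc, at -0.199, 0.0327 and -0.0926. It was the single bin of the stretch to pass below 0 (limma adjusted p = 0.0056, 0.00025 without line 2). Its own lines lay far apart all the same (SD 0.116), with line 2 above 0. The bins from 86 to 87 Mb (Tbc1d22a and Cerk, a ceramide kinase) and from 87 to 88 Mb (Fam19a5) followed, at -0.0843, 0.0572 and -0.103 and at -0.111, 0.0672 and -0.0082. The bins that were high in lines 1 and 3 were thus high in line 2 as well, and line 2 stood above line 1 in each bin named here.

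Of the 423 gene names, 147 had at least 3 probes and 145 of these lay wholly in the stretch and were tested. Of the 145, 35 passed above 0 and 6 below, against 14.6% above and 9.81% below of all 9058 genes tested. The median of the 3-line mean was 0.0690 in the stretch, against 0.0126 over all genes. Without line 2, 10 of the 145 passed above 0 (6.90%), against 6.58% of all genes, a share near the background. In the rest of chromosome 15, 37 of 208 genes passed above 0 in the fit of 3 lines and 15 of 208 without line 2. With lines 2 and 3 averaged as 1 animal, 11 of the 145 passed above 0, against 17 of 208 in the rest and 5.56% of all genes. After the correction for gene number 25 passed above 0 and 11 below in the stretch, and 39 above and 8 below of 208 in the rest, against 11.6% of all genes above and 11.7% below. By these 3 fits the share of genes above 0 was thus no higher in the stretch than in the rest of the chromosome. Genes rest on far fewer probes than bins, and in simulated data the gene test found 161 of 200 genes at a step of 0.5 and 0 of 200 at a step of 0.2. Only those 200 of the 9058 genes were shifted there, fewer than passed in these data, so the adjusted cutoff was stricter. These data did pass genes with means below 0.2, such as Ptk2 at 0.154, so the simulated counts do not carry over directly. The adjusted p-values of single genes below come from the fit of 3 lines, which includes line 2, the line that chose the stretch. For the genes that passed it, those without line 2 and with lines 2 and 3 as 1 animal are therefore given as well.

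The genes with the most probes rest on the most data. In the 31 genes of the stretch with at least 10 probes, the medians of lines 1, 2 and 3 were -0.0035, 0.103 and 0.0527. Above 0 stood 15 of them in line 1, 28 in line 2 and 26 in line 3, and line 2 exceeded line 1 in 23. Tmem117, a membrane protein gene with 49 probes, gave 0.154, 0.122 and 0.0888 in lines 1, 2 and 3 (limma adjusted p = 0.0589). Pdzrn4, with 35 probes (chr15:92233222-92597140), gave 0.0097, 0.0730 and 0.165. Nell2, a secreted protein of neurons with 35 probes, gave 0.0494, 0.0280 and -0.0162 and stayed near 0 in every line. Slc2a13, a transporter of myo-inositol with 29 probes, lay slightly below 0 in all 3, at -0.0408, -0.0278 and -0.0643, inside the stretch whose mean in line 2 was 0.127.

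**Figure D5:**
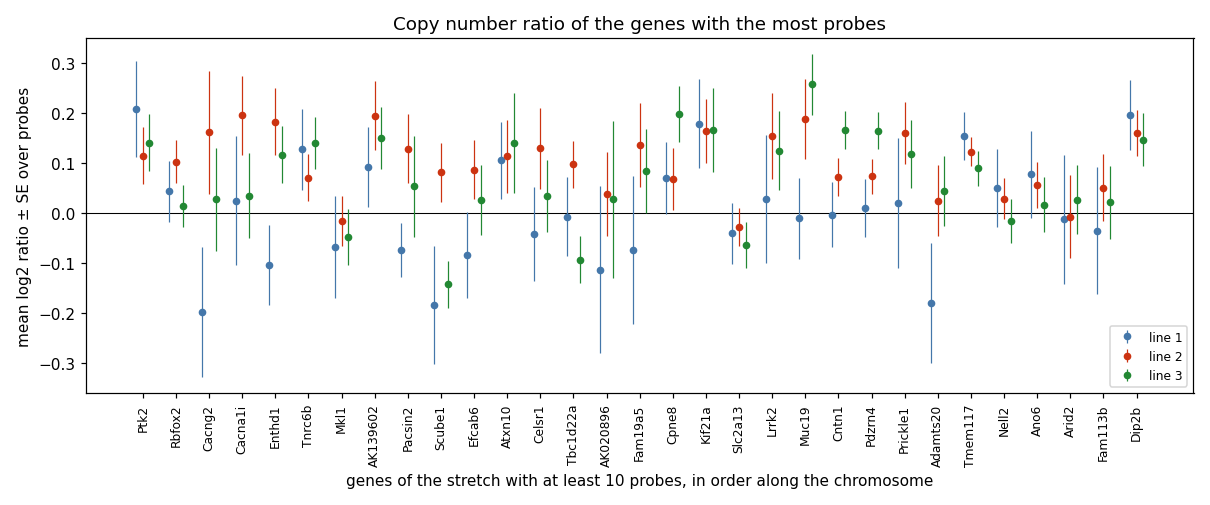
Mean log2 ratio with its standard error over probes (y axis) for the 31 genes of the stretch with at least 10 probes, in order along the chromosome (x axis), in the 3 lines. Points of line 2 stand above 0 in 28 genes and points of line 1 in 15.

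Among growth factors, receptors and kinases, 22 names were sought, 13 were found on probes of the stretch and 7 could be tested. In this list and those below, a name counts as found only if all probes that carry it lie in the stretch. Of the 7, 3 passed above 0 and 2 below in the fit of 3 lines (median of the 7 means 0.0670), against 14.6% above and 9.81% below over all genes. Without line 2, 0 passed above 0 and Pdgfb and Wnt7b below, and with lines 2 and 3 as 1 animal Pdgfb alone passed, below 0. Pdgfb, the growth factor gene, stood below 0 in each line, at -0.738, -0.0953 and -0.338 in lines 1, 2 and 3 (mean -0.390 ± 0.324, SD, n = 3 lines, limma adjusted p = 0.0255, 0.0064 without line 2 and 0.0389 with 2 animals). Its 3 probes span chr15:79829613-79841515, and their sequences are given because the gene's value rests on them alone.
Pdgfb probe, chr15:79829613-79829671: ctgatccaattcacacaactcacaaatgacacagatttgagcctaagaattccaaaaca
Pdgfb probe, chr15:79835420-79835479: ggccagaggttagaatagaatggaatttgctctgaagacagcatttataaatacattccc
Pdgfb probe, chr15:79841456-79841515: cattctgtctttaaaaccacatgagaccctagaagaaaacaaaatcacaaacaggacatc
The last of them read -1.32, -0.361 and -0.534 in lines 1, 2 and 3, the lowest of the 3 in every line. The first read -0.442, 0.0645 and -0.220, and the second -0.451, 0.0106 and -0.259. In line 2 the mean below 0 thus came from the last probe alone. Wnt7b, a Wnt ligand with 5 probes (chr15:85367395-85408884), gave -0.230, -0.105 and -0.238 (limma adjusted p = 0.0192, 0.0375 without line 2 and 0.0606 with 2 animals). Ptk2, with 21 probes (chr15:73040351-73249765), gave 0.207, 0.114 and 0.141 and was highest in line 1 (limma adjusted p = 0.0308, 0.104 without line 2 and 0.0969 with 2 animals). Irak4, a kinase of innate immune signalling, and Card10, a scaffold of NF-kappaB signalling, each with 3 probes, passed above 0 in the fit of 3 lines alone, at means of 0.197 ± 0.0384 and 0.154 ± 0.0963 (SD, n = 3 lines). Without line 2 their limma adjusted p was 0.0994 and 0.329, and with 2 animals 0.0671 and 0.182. Csf2rb gave -0.0994, 0.236 and 0.0642 on 3 probes (limma adjusted p = 0.442). Wnt1 had no probe of its own name.

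Among 32 names of transcription and chromatin, 24 had probes and 16 could be tested. Of these, 3 (18.8%) passed above 0 in the fit of 3 lines (Ep300, Brd1 and Phf21b), against 14.6% of all genes, and 0 below, with a median mean of 0.0886. Ep300 and Brd1 passed both without line 2 and with 2 animals, and Phf21b in neither (limma adjusted p = 0.0791 and 0.0627). Ep300 (chr15:81420894-81477240 from its first to its last probe) gave 0.244, 0.191 and 0.235 in lines 1, 2 and 3 on 7 probes (mean 0.224 ± 0.0281, SD, n = 3 lines, limma adjusted p = 0.0085, 0.0347 without line 2 and 0.0444 with 2 animals), so that it was high in line 1 too. Its probes follow.
Ep300 probe, chr15:81420894-81420953: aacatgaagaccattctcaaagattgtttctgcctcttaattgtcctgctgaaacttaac
Ep300 probe, chr15:81429787-81429846: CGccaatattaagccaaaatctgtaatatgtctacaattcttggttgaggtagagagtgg
Ep300 probe, chr15:81437837-81437896: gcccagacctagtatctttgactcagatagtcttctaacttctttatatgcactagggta
Ep300 probe, chr15:81447100-81447159: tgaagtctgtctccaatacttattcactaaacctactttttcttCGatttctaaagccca
Ep300 probe, chr15:81456261-81456320: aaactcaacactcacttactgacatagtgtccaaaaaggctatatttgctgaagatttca
Ep300 probe, chr15:81471330-81471389: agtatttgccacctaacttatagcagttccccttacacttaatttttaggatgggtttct
Ep300 probe, chr15:81477181-81477240: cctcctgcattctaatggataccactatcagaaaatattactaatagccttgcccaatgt
The fifth of them, at chr15:81456261-81456320, read -0.0557, -0.0674 and -0.0630 in lines 1, 2 and 3, and the fourth read 0.269, 0.515 and 0.560. Probes of 1 gene thus differed from each other by more than the lines did at either probe. Brd1, which binds acetylated histones, gave 0.183, 0.235 and 0.423 (limma adjusted p = 0.0098, 0.0249 without line 2 and 0.0424 with 2 animals). Rbfox2, a splicing factor with 26 probes, gave 0.0432, 0.103 and 0.0137. Tnrc6b, a protein of microRNA silencing, gave 0.127, 0.0698 and 0.139, and Mkl1, a cofactor of serum response factor, -0.0686, -0.0163 and -0.0490. None of these last 3 passed the test (limma adjusted p = 0.367, 0.0761 and 0.432). Sox10, a transcription factor of glia, had no probe of its own name.

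Of 32 names of neurons and glia, 29 had probes and 21 could be tested, of which 2 (9.52%) passed above 0 in the fit of 3 lines, against 14.6% of all genes, and 0 below (median mean 0.0401). Neither of these held without line 2 or with 2 animals, and Bai1 passed below 0 without line 2. The pair were Kif21a, a kinesin, at 0.178, 0.164 and 0.166 in lines 1, 2 and 3, and Slc38a1, a glutamine transporter, at 0.15, 0.106 and 0.201. Without line 2 their limma adjusted p was 0.105 and 0.1002, and with 2 animals 0.0846 and 0.113. Cntn1, with 31 probes (chr15:91889035-92170294), gave -0.0035, 0.0724 and 0.165 and Lrrk2, with 14 (chr15:91504320-91641199), gave 0.0278, 0.155 and 0.124 (limma adjusted p = 0.237 and 0.116). In both genes lines 2 and 3 stood above line 1. Shank3 gave 0.0940, 0.0052 and -0.0344 on 5 probes. Arc had 1 probe, at -0.808, -0.0615 and -0.158, and was not tested.

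Of the metabolism list, Samm50 passed above 0 in the fit of 3 lines, at 0.161, 0.277 and 0.178 in lines 1, 2 and 3 (limma adjusted p = 0.0135, 0.109 without line 2 and 0.0662 with 2 animals), and Cerk gave 0.0512, 0.132 and -0.0238. In adhesion, cytoskeleton and matrix 2 of 10 (20%) passed above 0 in the fit of 3 lines, against 14.6% of all genes, Parvb at 0.142, 0.377 and 0.417 and Arhgap8, a GTPase activating protein, at 0.0556, 0.361 and 0.293. In both, lines 2 and 3 exceeded line 1 by more than 0.2. Parvb held without line 2 (limma adjusted p = 0.0355) and not with 2 animals (0.0530), and Arhgap8 held in neither (0.140 and 0.127). Ano6, a lipid scramblase, gave 0.0772, 0.0558 and 0.0161, Celsr1, a cadherin of cell polarity, -0.0423, 0.129 and 0.0334, and Adamts20, a matrix protease, -0.180, 0.0244 and 0.0440. In DNA repair and cell cycle 16 names were sought, 11 had probes in the stretch and only 3 could be tested. Of these, 2 passed above 0 in the fit of 3 lines, against 14.6% of all genes, a count too small to compare. They were Smc1b at 0.205, 0.227 and 0.252 and Rangap1, the activator of the Ran GTPase, at 0.343, 0.229 and 0.131. Senp1, a SUMO protease, stood at -0.217, -0.0788 and -0.0591. Smc1b held in both other fits (limma adjusted p = 0.0410 without line 2 and 0.0469 with 2 animals), and Rangap1 with 2 animals (0.0424) but not without line 2 (0.0517). No tested gene of these lists passed below 0 in the fit of 3 lines. Of 16 names of the Ly6 family 1 had a probe (Gml), and of 24 names of the duplicated Cyp2d, Apol and Apobec3 families 14 had probes, each under 3.

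By the mean of lines 1 and 3, among genes with at least 5 probes, the highest of the stretch were Gm10863, Brd1, Parvb, Ep300 and Smc1b, and the lowest Zc3h3, Bai1, Wnt7b, Plec, which encodes the linker plectin, and Mpped1. Gm10863 gave 0.240, 0.385 and 0.382 in lines 1, 2 and 3. Bai1 gave -0.323, 0.0225 and -0.147, and Zc3h3, a zinc finger protein, -0.169, -0.0787 and -0.321. Plec gave -0.125, -0.0213 and -0.229, and Mpped1 -0.222, 0.0486 and -0.120. These 10 genes were ranked on the values of lines 1 and 3, so their order is a description.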

How the data were processed

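Genomic DNA of 3 neurosphere lines was hybridised against liver DNA on 2-colour Agilent arrays. The deposited intensity values are, per the file headers, output of Feature Extraction 10.7.3.1 (design on mm9), background-subtracted, detrended and dye-normalised. The deposited scanner files also hold log10 ratios, and recomputed ratios matched 99.96% of them within 1e-06. The deposited value table holds log10 values whose columns correlated with the scanner ratios at 0.865, 0.841 and 0.882, with slopes of 1.00, 1.01 and 0.998 of scanner on table and medians of 0.00026, -0.0016 and -0.0030. These settle its scale and direction, and its centring and correction are not given in the sources used here.

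Log2 of Cy5 over Cy3 processed intensity was computed, control and outlier spots were left out, spots of a probe were averaged, and each array was centred on its autosomal median. Of the 2315 spots in the stretch, 9 carried an outlier mark on an array and 0 were saturated, and 2161 of the 2251 probes were well above background in both channels on all arrays. The noise SD of a single probe, estimated from the median absolute difference between neighbouring probes, was 0.384, 0.232 and 0.238 in lines 1, 2 and 3. Bins of 1 Mb needed 10 probes, and genes 3. Gene number is the count of distinct gene names of the array's probes in a bin. Its correction is a straight line fitted over autosomal bins outside chromosome 15, tested on simulated data. Bin and gene means were tested against 0 with limma 3.58.1 (lmFit, eBayes) in R 4.3.3. The p-values use a spread between lines that is drawn towards that of all bins or genes. On simulated data the bin test found 86 of 200 bins shifted by 0.1 and 184 shifted by 0.2, of 2385. In the data themselves 434 bins passed above 0 and 522 below, so the simulated counts do not carry over directly. Python 3.11.15, numpy 2.4.6 and pandas 2.3.3 did the rest. Precision over lines is limited by the number of arrays.

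The members, the gene lists, the blocks and the rule for named genes were chosen with earlier results of these data known. The rule took 10 genes of interest whatever their value, the 3 most probed members of each list, the 5 highest and 5 lowest genes by the mean of lines 1 and 3, and the genes of the 3 highest and 3 lowest bins by that mean. Tmem117 and the other members that passed the test in a list were named after their values were seen. Gene names are the design's own, and no annotation of exons, introns or untranslated regions was used here. A result that needs 1 of the genes taken by the rule is not reported here. Sequences are those of the array's probes. Alternatives were the background correction, normalisation, source of values, summary, edges, filters, measure of gene number and bin size, and each line left out.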

Additional observations from a re-analysis of the deposited data

How the results depend on the processing

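Of 103 values recomputed under other settings, 91 stayed within the spread between lines (or, for counts, within 1.5 times), and 12 did not. A sign changed in 3, all of the corrected excess of line 1. That spread, 0.0433 or 0.0286 after correction for gene number, includes line 2, which chose the stretch. It was above the main excess of line 1 (0.0326) and of line 3 (0.0431). Even a full loss of their excess would thus stay within it, so the tally says little about lines 1 and 3. With the authors' value table the excess of the stretch over the rest of chromosome 15 in line 2 became 0.0223, or 0.0112 after correction for gene number, and that excess became 0.0206 in line 2 minus line 1 and 0.0035 in line 2 minus line 3. The cause was not tested. Over all settings the excess ran between 0.0223 and 0.123 in line 2, between 0.020 and 0.0552 in line 3 and between 0.0026 and 0.0412 in line 1. After correction for gene number it ran between 0.0112 and 0.0599 in line 2, between 0.0125 and 0.0347 in line 3 and between -0.0170 and 0.0054 in line 1, above 0 in 3 of 13 settings of line 1. A line on log2 of gene names and a joint correction for gene number and GC were chosen after seeing the data. Bins passing above 0 in the stretch numbered 31 of 56 at 500 kb and 5 of 7 at 5 Mb, against 18.1% and 16.6% of all bins of that size. With 1 line left out they ran between 11 (without line 3) and 23 (without line 1) of 29, against 11.7% and 15.4% of all bins. Genes passing above 0 numbered 87 of 421 (20.7%) with 1 probe or more, against 14.1% of all genes, and 11 of 145 (7.59%) with lines 2 and 3 averaged as 1 animal, against 5.56%. With 1 line left out they ran between 10 (6.90%, without line 2) and 66 (45.5%, without line 1), against 6.58% and 19.3% of all genes, with 23 (15.9%) without line 3, against 9.58%. No paired analysis was possible because the 3 lines are a single group. The stretch of line 1 rests on the noisiest array, and no locus has a replicate within a line.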

Other observations

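Probes of the stretch that carry no gene name read higher than those that do in lines 2 and 3. In line 1 the means lay close together, beside standard errors of 0.0152 and 0.0103. The 715 unnamed probes averaged 0.0290, 0.168 and 0.141 in lines 1, 2 and 3, against 0.0183, 0.119 and 0.0705 for the 1536 named ones, with standard errors over probes of 0.0064 to 0.0152. In the rest of chromosome 15 unnamed probes averaged -0.0122, 0.0274 and 0.0686, against -0.0056, 0.0309 and 0.0415 for named ones. On the other autosomes unnamed probes averaged -0.0087, 0.0038 and 0.0231, against 0.0045, 0.0068 and -0.0033 for named ones. In both of these parts unnamed probes were higher in line 3 alone. GC content was the same to within 1 percentage point, at 36.9% in unnamed and 37.1% in named probes of the stretch.

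A CpG dinucleotide was present in 40.8% of the probes of the stretch, against 34.6% in the rest of chromosome 15 and 36.1% on the other autosomes. The 229 probes of the stretch with 2 or more CpG averaged 0.0611, 0.173 and 0.146 in lines 1, 2 and 3, against 0.0069, 0.131 and 0.0862 for the 1332 probes with none. On the other autosomes the same groups averaged 0.0189, 0.0272 and 0.0225, against -0.0053, 0.0003 and 0.0008. The part of these probe features in the level of the stretch was not tested beyond the correction for GC, which left its excess over the rest of chromosome 15 at values within the range given above.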
